A study of Homo sapiens with 6 samples.

Results

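In human dermal fibroblasts converted toward muscle with the transcription factor MyoD, 101 of 23527 measured human genes rose with the wild-type factor and fell below the untreated level with a version of it that carries the activation domain VP64. These 101 genes were taken from the transcript counts, summed per gene symbol and scaled to 1000000 counts of each library's column total (CPM). A gene was kept when its mean was 5 CPM or more with wild-type MyoD, when both wild-type libraries were at least 1.4 times the higher untreated library, and when both VP64 libraries were at most the lower untreated library divided by 1.4. The choice used all 6 libraries and therefore all 3 comparisons between groups, so the levels of the 101 genes are described below without a test.

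The study compared primary human dermal fibroblasts in 3 groups of 2 libraries each. WT-MyoD cells carried a tet-inducible lentivirus for mouse MyoD, and VP64-MyoD cells carried the same vector for mouse MyoD with VP64 joined to its N-terminus through a serine and glycine linker. In both, dsRed-Express2 was made from the same transcript through a T2A peptide, the virus was given with 4 µg/mL polybrene, transduced cells were selected with 1 µg/mL puromycin, and 3 µg/mL doxycycline was given for 10 days before harvest. The untreated group was the negative control, and the labels do not say whether it was transduced, selected or given doxycycline. The cells were a single primary line, so the spread of 2 libraries of a group is not a spread between donors. The submitters describe the libraries as biological duplicates.

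Libraries held between 40997586 and 53804224 counts, all of them even numbers, so that a read pair was counted as 2. The row of the mouse transgene stood at 812 and 1018 CPM with WT-MyoD, at 119 and 102 CPM with VP64-MyoD, and at 4.72 and 0.955 CPM in untreated cells, which is in the order of the labels. Transgene RNA was thus lower with VP64-MyoD, and the activation domain and the amount of transgene cannot be told apart in any comparison of these groups. Fibroblast markers were high in all groups: COL1A1, a type I collagen chain, lay between 9333 and 17928 CPM over the 6 libraries, and VIM, the mesenchymal filament vimentin, between 1777 and 2906 CPM. The labels name no batch.

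MyoD is a basic helix-loop-helix factor that binds E-boxes, short DNA motifs that read CANNTG, together with E proteins, and it opens the muscle programme in fibroblasts when it is expressed in them. VP64 is an artificial activation domain made of repeats of a segment of the herpes simplex protein VP16, and it recruits the transcription machinery to the sites that its partner binds. Fibroblasts make and remodel the extracellular matrix, secrete modulators of growth factor signalling, and respond to interferon and to inflammatory cytokines through receptors and sensors of their own.

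The promoters of 73 of the genes were in the RefSeq table used here (GRCh38.p14), with 121 start sites, each given as 300 bases from 250 before the start to 50 after it. The general E-box CANNTG, searched on both strands, was in 64.5% of these 121 promoters, against 61.6% of the 15854 promoters of genes at 1 CPM or more and 68.7% of all 35116 promoters. The E-box of the form CAGCTG, which is part of the general form, was in 19.8% of the 121 and in 17.8% of the promoters of measured genes, and the form CAGGTG in 17.4% and 17.9%. The letters GAAANNGAAA, the core of the interferon-stimulated response element, were in 8 of the 121 promoters, or 6.61%, against 2.85% of the promoters of measured genes and 3.57% of all. Median GC content was 63.7% for the 121 promoters and 64.7% for those of measured genes. These matches describe letters in a window and no binding was measured.

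Stretches that hold these motifs are printed for some genes the text returns to, first those with the interferon-stimulated letters and then 3 with an E-box of the form CAGCTG. Each lies before the start site and reads 5′ to 3′ on the gene's strand, with the motif in capitals. Where capitals read TTTCNNTTTC, the motif lies on the opposite strand, and in the first IFIH1 and the IFIT1 stretch 2 matches stand close together. The interferon-stimulated letters were also upstream in ARMC9 and STS, which are not printed. The form CAGCTG was also upstream in other genes described here, among them ACE, AHNAK2, C1QTNF3, FYCO1, KCNJ2, PAM and TRIM2. Their stretches with that form are not printed. The coordinates are chr2:162318803-162318868 (minus strand) and chr2:162318685-162318730 (minus strand) for IFIH1, chr10:89392482-89392554 (plus strand) for IFIT1, chr1:12166956-12166990 (plus strand) for TNFRSF1B, chr9:18473903-18473958 (plus strand) for ADAMTSL1, chr4:153151921-153151980 (plus strand) for TRIM2, chr3:45029966-45030021 (plus strand) for CLEC3B, chr2:85753751-85753806 (plus strand) for ATOH8 and chr2:8681826-8681881 (plus strand) for ID2.
IFIH1, farther: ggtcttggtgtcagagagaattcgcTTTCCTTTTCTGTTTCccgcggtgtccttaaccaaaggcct
IFIH1, nearer: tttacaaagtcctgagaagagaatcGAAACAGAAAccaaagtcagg
IFIT1: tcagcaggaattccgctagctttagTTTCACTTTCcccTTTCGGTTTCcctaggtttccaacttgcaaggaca
TNFRSF1B: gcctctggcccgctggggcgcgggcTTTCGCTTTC
ADAMTSL1: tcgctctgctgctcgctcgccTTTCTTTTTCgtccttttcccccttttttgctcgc
TRIM2: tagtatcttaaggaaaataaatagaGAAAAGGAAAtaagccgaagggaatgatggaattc
CLEC3B: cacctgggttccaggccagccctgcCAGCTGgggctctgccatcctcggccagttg
ATOH8: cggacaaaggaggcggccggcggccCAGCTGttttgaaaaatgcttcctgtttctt
ID2: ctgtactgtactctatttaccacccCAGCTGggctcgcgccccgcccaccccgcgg

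The pattern was uncommon among the genes raised by wild-type MyoD. Of 10650 genes at 5 CPM or more with WT-MyoD, 1868 (17.5%) met the WT-MyoD condition and 1115 (10.5%) met the VP64-MyoD condition. Of the 1868, 1227 (65.7%) were also at least 1.4 times the higher untreated library in both VP64-MyoD libraries, 540 lay in between, and 101 (5.41%) met the opposite condition. In edgeR's quasi-likelihood fit over 15282 genes with Benjamini-Hochberg adjustment, 26% of all genes were called higher and 22.5% lower with WT-MyoD than in untreated cells, 33.3% higher and 30.3% lower with VP64-MyoD than in untreated cells, and 28.7% higher and 28.4% lower in VP64-MyoD than in WT-MyoD libraries. All 101 passed the filter of that fit and were called in the direction of the rule, which used the same contrasts, so nothing is read from that count. The median edgeR log2 fold change of the 101 was 0.78 with WT-MyoD and -1.25 with VP64-MyoD over untreated, and -2.22 between both MyoD groups, beside medians of 0, 0.03 and 0.02 over all genes tested.

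**Figure D1:**
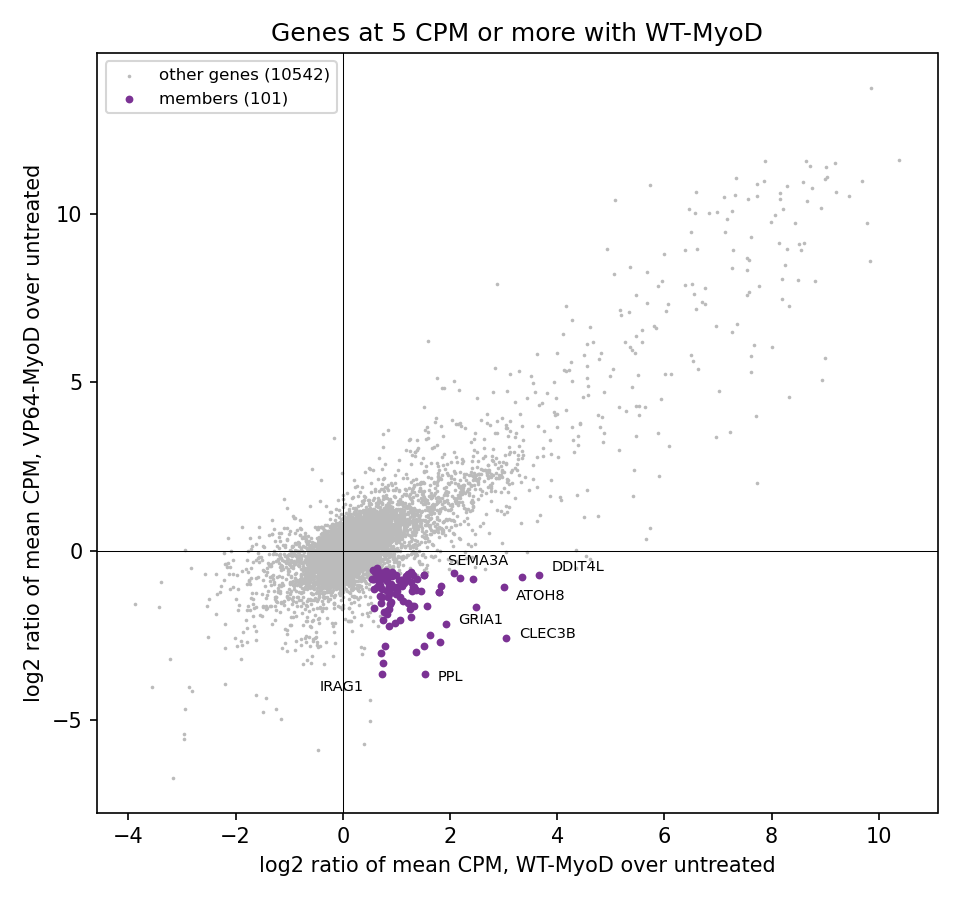
Each point is a gene at 5 CPM or more with WT-MyoD, placed by the log2 ratio of its mean CPM with WT-MyoD over untreated (x axis) and with VP64-MyoD over untreated (y axis), for 10643 genes with counts in every group. The 101 genes of the set (purple) fill the lower right, where DDIT4L lies farthest right and IRAG1 and PPL lie lowest.

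Within the set, the mean with WT-MyoD was between 1.47 (SEMA3D) and 12.7 times (DDIT4L) the untreated mean, with a median of 1.94. The untreated mean was between 1.43 (FYCO1) and 12.6 times (IRAG1) the VP64-MyoD mean, with a median of 2.10. From WT-MyoD to VP64-MyoD the ratio ran from 2.21 (ZFP36L2) to 49.2 (CLEC3B), with a median of 4.63, and 15 genes reached 10. On the log2 scale the WT-MyoD change was the larger for 43 genes and the VP64-MyoD change for 58. A total of 100 genes were protein coding, and LEISA1 was a long non-coding RNA. Mean counts with WT-MyoD were between 5.46 CPM (SORL1) and 2246 CPM (APLP2), a scale that is not corrected for transcript length.

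Some genes lay just inside or just outside the thresholds. On the WT-MyoD side the ratio of the lower WT-MyoD to the higher untreated library was 1.402 for ALDH1A3, 1.43 for ZFP36 and 1.44 for FYCO1 and TRIM2, which were kept, and 1.39 for FMN2, EPB41L1 and JADE2 and 1.38 for SERPINB9, which were not. On the VP64-MyoD side the ratio of the lower untreated to the higher VP64-MyoD library was 1.404 for FYCO1, 1.41 for TSHZ1, 1.42 for ID2 and 1.43 for SEMA3F, which were kept, and 1.397 for IFIT3, 1.39 for MOXD1 and PLCD1 and 1.38 for TGFBR2, which were not. Genes near a threshold therefore differed little across it. With TMM scaling in place of the column totals 92 genes met the rule, 73 of the 101 among them, while 28 did not, among them APLP2, ATP2B4, ADAMTSL1, ADAMTS5, AKR1C1, AKR1C2, ALDH1A3, CSF1, DKK1, HSPB6, IRAG1, KRT19, PDGFRL, SEMA3D, SMAD9 and TOX of the genes described below.

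Grouped by role after their values had been seen, the genes included 16 of innate defence, cytokines and inflammation, 11 modulators of growth factor signalling, 10 of the extracellular matrix and its remodelling, 8 channels, pumps and transporters, 8 transcription regulators, 7 enzymes of retinoid, steroid and lipid metabolism, 6 of junctions and the cytoskeleton, 3 semaphorins, 3 peptidases or peptide-processing enzymes and 2 small heat shock proteins. The remaining 27 were of other or mixed function. In these bulk libraries, fewer cells of a type and less RNA per cell cannot be told apart.

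Among matrix genes, CLEC3B, which encodes the plasminogen-binding protein tetranectin, counted 5.35 and 4.94 CPM in untreated cells, 44.8 and 40.6 CPM with WT-MyoD, and 0.845 and 0.891 CPM with VP64-MyoD. The WT-MyoD mean of CLEC3B was 8.30 times the untreated mean, while the untreated mean was 5.93 times the VP64-MyoD mean. ACAN, the large cartilage proteoglycan aggrecan, was at 13.0 and 15.4 CPM untreated, 42.1 and 45.7 CPM with WT-MyoD, and 2.71 and 2.31 CPM with VP64-MyoD. Its degrading enzyme ADAMTS5, an aggrecanase, followed the same order, at 234 and 240 CPM untreated, 387 and 462 CPM with WT-MyoD, and 91.8 and 94.2 CPM with VP64-MyoD. DCN, or decorin, a small proteoglycan that binds collagen fibrils and TGF-beta, measured 872 and 922 CPM untreated, 1635 and 1563 CPM with WT-MyoD, and 384 and 402 CPM with VP64-MyoD. Decorin thus lost more than it gained: the untreated mean was 2.28 times the VP64-MyoD mean, and the WT-MyoD mean 1.78 times the untreated mean. For ADAMTSL1, a secreted matrix protein related to the ADAMTS proteases, counts were 334 and 317 CPM untreated, 487 and 524 CPM with WT-MyoD, and 199 and 195 CPM with VP64-MyoD. C1QTNF3, a secreted C1q-related protein, showed the second-largest WT-MyoD ratio of the set, from 3.27 and 3.07 CPM to 33.4 and 31.0 CPM, with 1.64 and 2.07 CPM under VP64-MyoD; its exons overlap the readthrough gene C1QTNF3-AMACR on the same strand, so reads may be split between them.

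Other fibroblast matrix genes mostly moved otherwise. Of the 45 tested genes of the fibroblast matrix and identity list other than DCN, 9 rose and 29 fell with WT-MyoD, and 7 rose and 30 fell with VP64-MyoD, over untreated. Between the MyoD groups, 13 were higher and 17 lower with VP64-MyoD. Their median edgeR log2 fold changes were -0.69 and -0.64 over untreated. The related proteoglycan BGN (biglycan) fell from 1504 and 1494 CPM to 779 and 743 CPM with WT-MyoD and stood at 1572 and 1520 CPM with VP64-MyoD, the reverse order of DCN between the MyoD groups (edgeR log2 fold change of VP64-MyoD over WT-MyoD 1.01, SE 0.07, adjusted p = 4.7e-09). LUM (lumican) was at 377 and 356 CPM untreated, 640 and 568 CPM with WT-MyoD and 498 and 502 CPM with VP64-MyoD, above the untreated level in both MyoD groups.

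Among the 6 genes of junctions and the cytoskeleton, losses with VP64-MyoD were between 1.60 and 12.6-fold, with a median of 2.63. PPL, or periplakin, a plakin that links the cornified envelope and desmosomes to intermediate filaments, was at 123 and 129 CPM untreated, 344 and 382 CPM with WT-MyoD, and 10.0 and 9.96 CPM with VP64-MyoD. The WT-MyoD mean of PPL was 36.3 times its VP64-MyoD mean. KRT19, a simple-epithelium keratin, was at 11.3 and 10.6 CPM untreated, 23.0 and 16.8 CPM with WT-MyoD and 3.56 and 3.12 CPM with VP64-MyoD. KRT18 did not share this order and counted 11.003 and 9.60 CPM untreated, 2.23 and 2.49 CPM with WT-MyoD, and 3.87 and 3.32 CPM with VP64-MyoD. KRT8 was also highest untreated, with group means of 3.56, 1.88 and 1.64 CPM. KRT14, near the floor, was at 0.0743 and 0 CPM untreated, 0.265 and 0.293 CPM with WT-MyoD, and 0 and 0.0405 CPM with VP64-MyoD. In edgeR's test KRT14 rose with WT-MyoD (adjusted p = 0.031) and was lower in VP64-MyoD than in WT-MyoD libraries (adjusted p = 0.0093). Its change with VP64-MyoD over untreated did not pass (adjusted p = 0.59). The keratinocyte marker KRT5 was at 0 in 4 libraries and at most 0.133 CPM, and the epithelial marker EPCAM was at most 0.0889 CPM. The summed epithelial list was lower with WT-MyoD (13.1 to 13.999 CPM) than untreated (19.4 to 21.1 CPM) and stood at 24.6 CPM with VP64-MyoD. The part of epithelial cells in these levels was not tested. MALL, a raft protein of the MAL family, was at 9.59 and 9.06 CPM untreated, 34.1 and 30.3 CPM with WT-MyoD, and 4.00 and 4.05 CPM with VP64-MyoD. ITGB8, the integrin chain that activates latent TGF-beta, was at 4.87 and 4.61 CPM untreated, 8.02 and 9.46 CPM with WT-MyoD, and 2.89 and 3.04 CPM with VP64-MyoD.

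**Figure D2:**
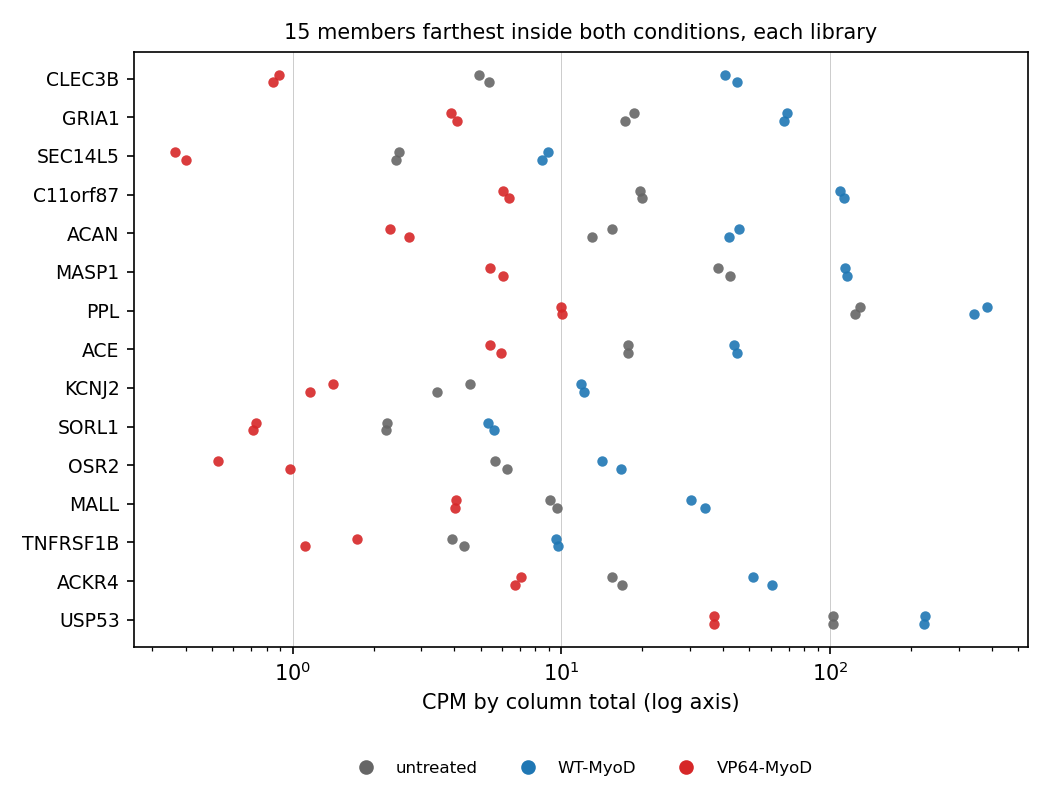
The 15 genes that lay farthest inside both conditions are shown with 1 point per library, on a logarithmic CPM axis, for untreated (grey), WT-MyoD (blue) and VP64-MyoD (red) cells. In every row the groups stand apart in the order VP64-MyoD, untreated, WT-MyoD, as the rule requires. CLEC3B is the widest apart and USP53 the least far inside.

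Several surface receptors and channels better known from nerve and muscle showed the pattern. GRIA1, a subunit of AMPA glutamate receptors, counted 17.3 and 18.6 CPM untreated, 67.3 and 69.1 CPM with WT-MyoD, and 4.09 and 3.89 CPM with VP64-MyoD. Its paralog GRIA3 was not a member and stood at 37.3 and 39.0 CPM untreated, 52.6 and 49.0 CPM with WT-MyoD, and 47.2 and 49.98 CPM with VP64-MyoD, while GRIA2 and GRIA4 were at or near 0 in all libraries. KCNJ2, the inward rectifier potassium channel Kir2.1 of muscle and heart, was at 3.46 and 4.57 CPM untreated, 12.1 and 11.8 CPM with WT-MyoD, and 1.16 and 1.42 CPM with VP64-MyoD. The antisense gene KCNJ2-AS1 overlaps KCNJ2 and moved in the same order of group means (0.454, 1.27 and 0.249 CPM). The libraries were unstranded, so reads in shared exons of antisense pairs cannot be assigned by strand. KCND2, a subunit of A-type potassium channels, was at 13.6 and 14.2 CPM untreated, 36.9 and 39.6 CPM with WT-MyoD, and 5.38 and 6.76 CPM with VP64-MyoD. ATP2B4, a plasma membrane calcium pump, showed smaller ratios, with 373 CPM in both untreated libraries, 571 and 636 CPM with WT-MyoD, and 182 and 188 CPM with VP64-MyoD. SORL1, a sorting receptor of the endosome, counted 2.23 and 2.24 CPM untreated, 5.60 and 5.32 CPM with WT-MyoD, and 0.711 and 0.729 CPM with VP64-MyoD. APLP2, an amyloid precursor-like protein, counted 1463 and 1544 CPM untreated, 2254 and 2239 CPM with WT-MyoD, and 849 and 861 CPM with VP64-MyoD. The paralog APP was at 1523 CPM in both untreated libraries and between 2017 and 2177 CPM in all 4 MyoD libraries, so that APP was above its untreated level with VP64-MyoD, where APLP2 was below.

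Modulators of growth factor signalling formed a group of 11. SFRP1, a secreted Wnt antagonist, was at 35.6 and 35.1 CPM untreated, 65.0 and 54.6 CPM with WT-MyoD, and 4.04 and 3.08 CPM with VP64-MyoD, the deepest loss of the group. DKK1, which blocks the Wnt co-receptors LRP5 and LRP6, was at 103 and 95.7 CPM untreated, 174 and 151 CPM with WT-MyoD, and 33.8 and 34.8 CPM with VP64-MyoD. Its exons overlap the antisense gene PRKG1-AS1, which had group means of 3.05, 3.31 and 6.06 CPM in untreated, WT-MyoD and VP64-MyoD cells. FST, or follistatin, a secreted inhibitor of activin and myostatin, was at 113 and 111 CPM untreated, 204 and 193 CPM with WT-MyoD, and 60.8 and 60.1 CPM with VP64-MyoD. Further inward in the same pathways, TGFBR3, the co-receptor betaglycan, was at 72.2 and 72.9 CPM untreated, 132.3 and 130.7 CPM with WT-MyoD, and 14.5 and 16.8 CPM with VP64-MyoD. SMAD9, a transducer of BMP signals, was at 13.9 and 15.2 CPM untreated, 24.1 and 28.8 CPM with WT-MyoD, and 7.25 and 5.67 CPM with VP64-MyoD. The other TGF-beta receptors behaved differently from one another: TGFBR2 missed the VP64-MyoD condition narrowly, at 527 and 508 CPM untreated, 802 and 809 CPM with WT-MyoD and 350 and 369 CPM with VP64-MyoD, and TGFBR1 fell with WT-MyoD (edgeR log2 fold change -0.36, SE 0.07, adjusted p = 0.00080) and did not pass the test with VP64-MyoD (-0.09, SE 0.07, adjusted p = 0.33).

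The rest of these pathways did not follow their members as a body. Of 34 other tested genes of the Wnt list, 13 rose and 15 fell with WT-MyoD and 12 rose and 16 fell with VP64-MyoD over untreated, and 9 were higher and 13 lower in VP64-MyoD than in WT-MyoD libraries. Of 38 others in the TGF-beta, BMP and activin list, 12 rose and 20 fell with WT-MyoD, 10 rose and 21 fell with VP64-MyoD, and 17 were higher and 16 lower in the comparison of the MyoD groups. Several ligands were lowest with WT-MyoD, where the members were highest: GDF6 was at 169 and 181 CPM untreated, 12.1 and 11.9 CPM with WT-MyoD, and 57.4 and 59.7 CPM with VP64-MyoD. INHBA, the activin A chain that follistatin binds, was at 330 and 337 CPM untreated, 102 and 103 CPM with WT-MyoD, and 342 and 359 CPM with VP64-MyoD. WNT5A, a non-canonical Wnt ligand, was at 419 and 439 CPM untreated, 111 and 122 CPM with WT-MyoD, and 274 and 296 CPM with VP64-MyoD, and the receptor FZD8 fell from 83.0 and 76.0 CPM to 19.6 and 16.8 CPM with WT-MyoD and was at 49.5 and 50.4 CPM with VP64-MyoD. TGFB2 rose in both MyoD groups, from 3.16 and 3.70 CPM to 11.7 and 11.2 CPM with WT-MyoD and 51.1 and 53.6 CPM with VP64-MyoD. TCF7, a nuclear effector of Wnt signals, also rose in both, from 15.8 and 14.2 CPM to 72.2 and 63.9 CPM with WT-MyoD and 25.1 and 27.3 CPM with VP64-MyoD.

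Growth factor receptors and ligands held 1 member, PDGFRL, a secreted protein related to PDGF receptors. It was at 5.06 and 4.74 CPM untreated, 9.50 and 7.42 CPM with WT-MyoD, and 0.711 and 0.688 CPM with VP64-MyoD. Of the 50 other tested genes of that list, 20 rose and 16 fell with WT-MyoD and 15 rose and 26 fell with VP64-MyoD. Between the MyoD groups, 12 were higher and 29 lower in VP64-MyoD than in WT-MyoD libraries, against 28.7% and 28.4% of all genes.

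Class 3 semaphorins, secreted guidance proteins that signal through neuropilins and plexins, gave 3 members. SEMA3A was at 36.9 and 38.7 CPM untreated, 209 and 197 CPM with WT-MyoD, and 20.3 and 22.1 CPM with VP64-MyoD. SEMA3D was at 55.3 and 55.9 CPM untreated, 81.7 and 81.2 CPM with WT-MyoD, and 30.3 and 32.8 CPM with VP64-MyoD. SEMA3F was at 6.58 and 6.81 CPM untreated, 18.1 and 17.0 CPM with WT-MyoD, and 2.98 and 4.62 CPM with VP64-MyoD. By group means their losses with VP64-MyoD were nearly equal (1.78, 1.76 and 1.76-fold), whereas their WT-MyoD ratios were 5.36, 1.47 and 2.62. The VP64-MyoD libraries of SEMA3F differed by 43.2% of their mean, so the size of its loss is uncertain. SEMA3A and SEMA3D are neighbours on chromosome 7, with no gene at 1 CPM or more between them.

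The other members of the class moved otherwise. SEMA3C, at 863 and 913 CPM untreated, fell to 467 and 468 CPM with WT-MyoD and to 220 and 234 CPM with VP64-MyoD. SEMA3B did not pass the test with WT-MyoD (edgeR log2 fold change -0.03, SE 0.14, adjusted p = 0.88) and fell with VP64-MyoD (-2.25, SE 0.16, adjusted p = 6.7e-09). SEMA3G rose in both MyoD groups, from 0.335 and 0.582 CPM to 3.52 and 3.07 CPM with WT-MyoD and to 9.07 and 8.99 CPM with VP64-MyoD. Across the 37 other tested genes of the axon guidance list, 14 rose and 12 fell with WT-MyoD, 12 rose and 18 fell with VP64-MyoD, and 8 were higher and 22 lower in VP64-MyoD than in WT-MyoD libraries, against 28.7% and 28.4% of all genes. SLIT3, a ligand of Robo receptors, fell in both, from 1310 and 1319 CPM to 279 and 297 CPM with WT-MyoD and 86.9 and 83.5 CPM with VP64-MyoD. EFNB2, a membrane-bound ligand of Eph receptors, was near the pattern, with 4.68 and 4.99 CPM untreated, 19.4 and 18.5 CPM with WT-MyoD and 3.29 and 3.40 CPM with VP64-MyoD, but missed the threshold with VP64-MyoD. SEMA7A, a membrane-anchored semaphorin, had the opposite order, with 194 and 179 CPM untreated, 136 and 125 CPM with WT-MyoD and 304 and 314 CPM with VP64-MyoD.

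**Figure D3:**
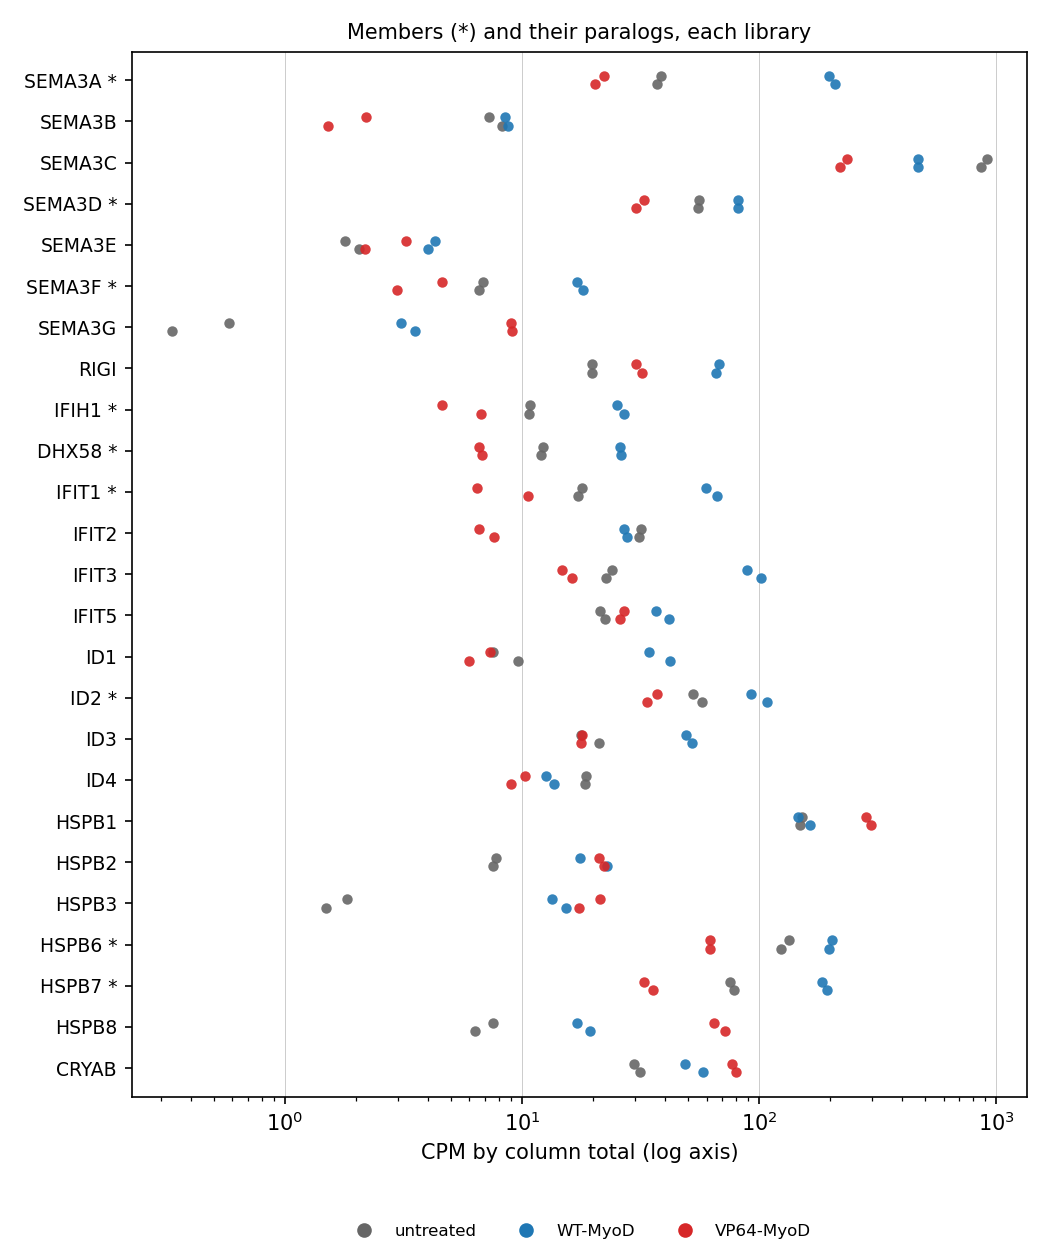
Genes of the set (marked *) and their paralogs are shown with 1 point per library on a logarithmic CPM axis, for untreated (grey), WT-MyoD (blue) and VP64-MyoD (red) cells. Members have red, grey and blue from left to right, as the rule requires, whereas RIGI, IFIT2, SEMA3C and HSPB8 among the paralogs do not. The paralogs IFIT3 and ID1 share the order of the members but did not meet the rule. SEMA3B has that order in CPM, but its change with WT-MyoD did not pass edgeR's test (adjusted p = 0.88).

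The innate defence group of 16 was put together after values had been seen. Of its genes, 6 were in a list: 3 in the interferon list, 2 in the cytokine list and 1 in the complement list. Complement was represented by MASP1, a serine protease of the lectin pathway, at 42.2 and 38.3 CPM untreated, 115 and 114 CPM with WT-MyoD, and 6.05 and 5.43 CPM with VP64-MyoD. C2, the protease of the classical and lectin convertase, was at 11.3 and 10.8 CPM untreated, 27.5 and 27.2 CPM with WT-MyoD, and 5.20 and 5.31 CPM with VP64-MyoD. Its alternative-pathway counterpart and paralog CFB was not a member, since its rise with WT-MyoD was smaller, with 15.2 and 15.8 CPM untreated, 25.6 and 20.4 CPM with WT-MyoD, and 3.69 in both VP64-MyoD libraries. C2 exons overlap ZBTB12 on the opposite strand, which had group means between 5.34 and 6.16 CPM. Of the 17 other tested genes of the complement list, 6 rose and 9 fell with WT-MyoD and 5 rose and 11 fell with VP64-MyoD, and 1 was higher and 10 lower in VP64-MyoD than in WT-MyoD libraries. COLEC12, a scavenger receptor with a lectin domain, rose more than it fell, from 93.9 and 89.5 CPM to 374 and 399 CPM with WT-MyoD, with 56.6 and 60.7 CPM under VP64-MyoD.

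The interferon response gave 3 members, IFIT1, an effector that binds foreign RNA caps, and the cytoplasmic RNA helicases IFIH1 (the sensor MDA5) and DHX58 (LGP2). IFIT1, whose promoter stretch above holds a pair of the interferon-stimulated letters, was at 17.2 and 17.99 CPM untreated, 66.7 and 59.5 CPM with WT-MyoD, and 10.6 and 6.48 CPM with VP64-MyoD. IFIH1 was at 10.7 and 10.8 CPM untreated, 26.9 and 25.1 CPM with WT-MyoD, and 6.71 and 4.58 CPM with VP64-MyoD. DHX58 was at 12.0 and 12.3 CPM untreated, 26.2 and 26.0 CPM with WT-MyoD, and 6.80 and 6.60 CPM with VP64-MyoD. The VP64-MyoD libraries differed from each other by 48.1% of their mean for IFIT1 and 37.8% for IFIH1, and by 2.98% for DHX58. The related helicase RIGI (RIG-I) rose in both MyoD groups, from 19.7 CPM in both untreated libraries to 65.6 and 67.8 CPM with WT-MyoD and 32.1 and 30.3 CPM with VP64-MyoD. IFIT2 fell in both, with edgeR log2 fold changes of -0.37 (SE 0.08, adjusted p = 0.0016) and -2.33 (SE 0.09, adjusted p = 5.3e-12) over untreated.

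Most of the interferon list rose with WT-MyoD, and a part of it fell with VP64-MyoD. Of 53 tested genes other than the 3 members, 47 rose and 2 fell with WT-MyoD, where 26% and 22.5% of all genes did. With VP64-MyoD 26 rose and 13 fell over untreated, where 33.3% and 30.3% of all genes did, and 43 were lower in VP64-MyoD than in WT-MyoD libraries and 3 higher. The genes that rose most with WT-MyoD stayed above the untreated level with VP64-MyoD: OAS2 was at 1.75 and 1.83 CPM untreated, 77.5 and 76.7 CPM with WT-MyoD, and 9.78 and 8.95 CPM with VP64-MyoD. MX2 was at 0.149 and 0.166 CPM untreated, 21.2 and 18.3 CPM with WT-MyoD, and 1.73 and 1.54 CPM with VP64-MyoD. IFIT3, the first gene outside the VP64-MyoD threshold, was at 22.6 and 24.0 CPM untreated, 102 and 89.0 CPM with WT-MyoD, and 16.2 and 14.8 CPM with VP64-MyoD, and it fell with VP64-MyoD in the edgeR test (log2 fold change -0.78, SE 0.08, adjusted p = 7.1e-07). IFIT3 is one of the 13 that fell over untreated with VP64-MyoD. STAT2, a part of the factor that binds the interferon-stimulated element, rose with WT-MyoD by 0.28 on the log2 scale and fell by 0.96 with VP64-MyoD in edgeR's test (adjusted p = 0.0032 and 6.5e-09).

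**Figure D4:**
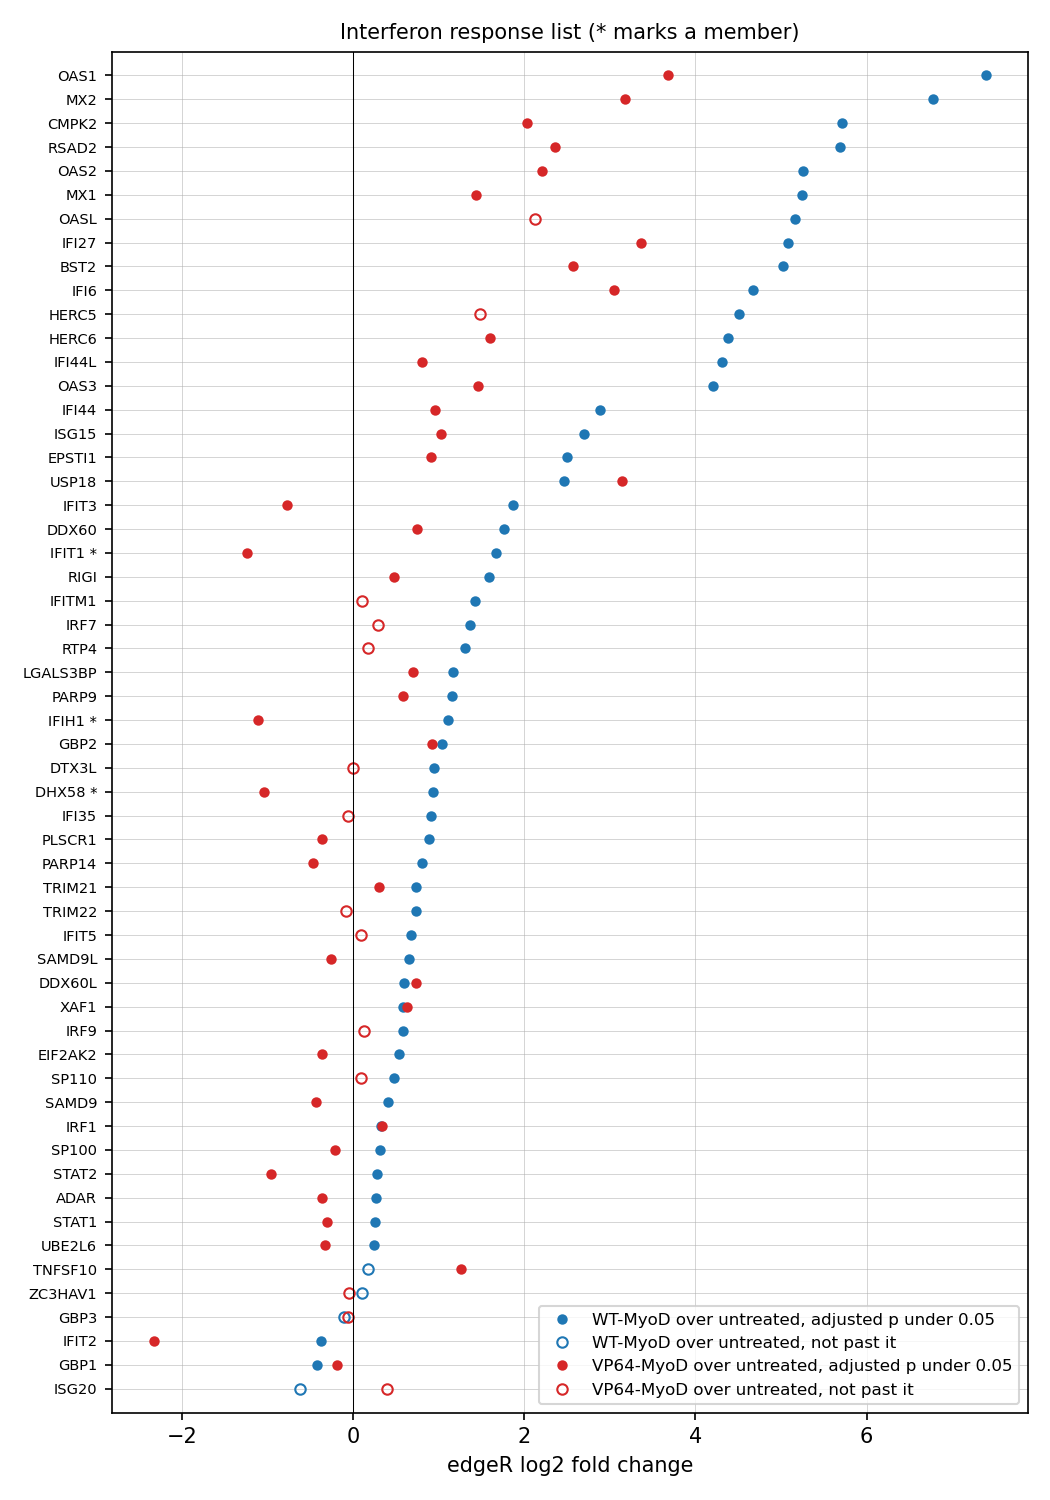
Each row is a gene of the interferon list that passed the filter, with its edgeR log2 fold change over untreated for WT-MyoD (blue) and VP64-MyoD (red); filled points passed an adjusted p of 0.05 and * marks a member. Blue points lie right of 0 for most genes, and red points lie right of 0 for the upper rows and left of it for IFIT1, IFIH1, DHX58, IFIT3, STAT2 and IFIT2 among others.

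Cytokine genes gave IL7 and CSF1. IL7, a lymphocyte growth factor, was at 2.64 and 3.03 CPM untreated, 6.17 and 5.02 CPM with WT-MyoD, and 0.489 and 0.810 CPM with VP64-MyoD. CSF1, the growth factor of macrophages, changed less, with 165 and 163 CPM untreated, 246 and 249 CPM with WT-MyoD, and 107 and 106 CPM with VP64-MyoD. Cytokine receptors in the group were TNFRSF1B, the type 2 receptor of TNF, at 4.35 and 3.91 CPM untreated, 9.72 and 9.56 CPM with WT-MyoD and 1.11 and 1.74 CPM with VP64-MyoD, and IL6R, at 11.4 and 11.8 CPM untreated, 20.2 and 20.9 CPM with WT-MyoD and 3.38 and 3.40 CPM with VP64-MyoD. ACKR4, an atypical receptor that scavenges chemokines, was at 16.8 and 15.5 CPM untreated, 60.7 and 51.7 CPM with WT-MyoD, and 6.71 and 7.05 CPM with VP64-MyoD. The other cytokines with the smallest adjusted p between the MyoD groups went the opposite way there. IL32 counted 2.08 and 2.04 CPM untreated, 7.68 and 6.24 CPM with WT-MyoD and 72.8 and 70.9 CPM with VP64-MyoD, IL34 counted 0.595 and 0.789, 4.88 and 4.44, and 36.7 and 33.9 CPM, and IL11 counted 4.94 and 4.99, 1.82 and 1.90, and 12.2 and 11.2 CPM. Of the 17 other tested genes of the list, 7 rose and 5 fell with WT-MyoD and 8 rose and 7 fell with VP64-MyoD. Between the MyoD groups the list was mixed, with 8 higher and 6 lower in VP64-MyoD than in WT-MyoD libraries.

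**Figure D5:**
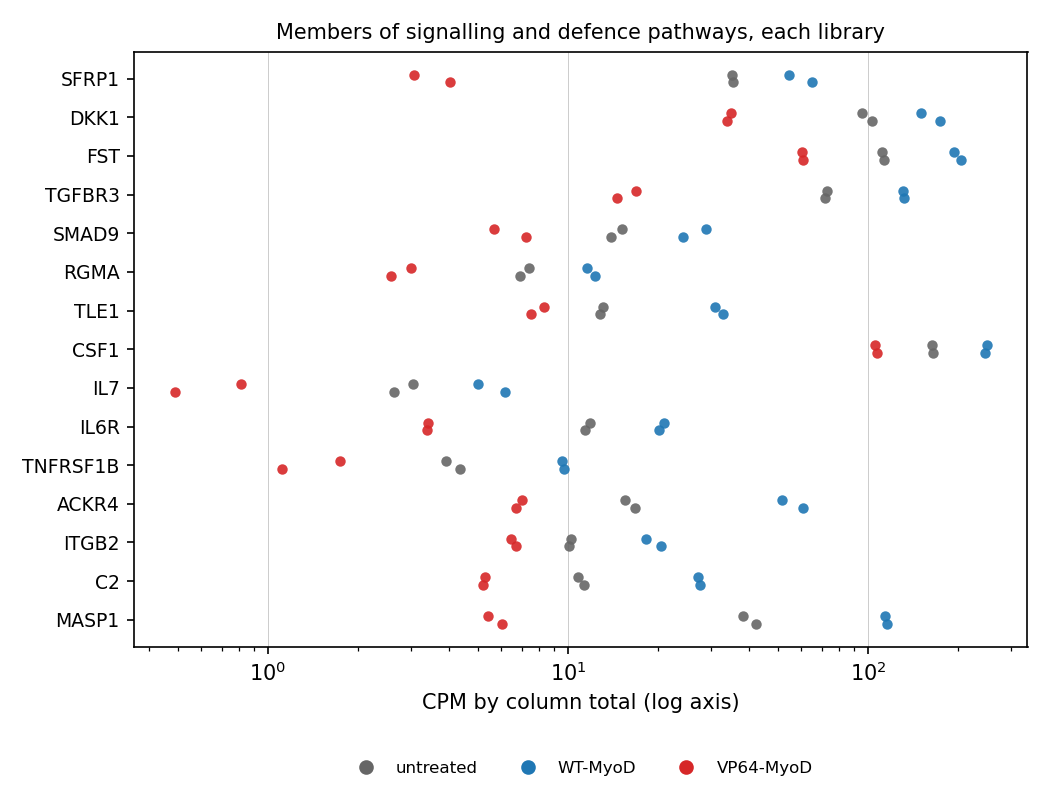
Genes of the set that encode ligands, antagonists, receptors and complement proteases are shown with 1 point per library on a logarithmic CPM axis, for untreated (grey), WT-MyoD (blue) and VP64-MyoD (red) cells. SFRP1, MASP1 and TGFBR3 have a wide gap between red and grey, and ACKR4 a wide gap between grey and blue.

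The summed immune marker list moved with this group and its genes did so in part: of 7 tested, 3 rose and 1 fell with WT-MyoD, 1 rose and 3 fell with VP64-MyoD, and 3 were higher and 3 lower in VP64-MyoD than in WT-MyoD libraries. The summed immune list was 64.6 to 65.5 CPM untreated, 184 to 193 CPM with WT-MyoD and 48.8 to 51.6 CPM with VP64-MyoD, and nearly all of it was CD68, a lysosomal protein of macrophages, at 61.2 and 61.8, 187 and 178, and 44.4 and 47.5 CPM. CD3E and AIF1 were at 0 in all libraries, and PTPRC, which marks all leukocytes, was between 0.795 and 1.78 CPM and highest with VP64-MyoD. CD14 and CD74 were at most 1.78 CPM but had the order of the members. The edgeR log2 fold changes of CD14 over untreated were 1.28 with WT-MyoD and -1.31 with VP64-MyoD (adjusted p = 0.0036 and 0.011). Those of CD74 were 1.64 and -1.65 (adjusted p = 0.0019 and 0.013). CSF1R, the receptor of CSF1 on macrophages, had the reverse order, at 0.446 and 0.540 CPM untreated, 0.265 and 0.146 CPM with WT-MyoD and 0.800 and 0.972 CPM with VP64-MyoD, and fell with WT-MyoD in edgeR's test (adjusted p = 0.025). LYZ, or lysozyme, lay between 0.648 and 1.32 CPM and passed the test in no comparison. ITGB2, the leukocyte integrin chain and a member, was at 10.1 and 10.2 CPM untreated, 20.4 and 18.1 CPM with WT-MyoD and 6.71 and 6.44 CPM with VP64-MyoD. The part of immune cells in these levels was not tested. The 11 smooth muscle and pericyte markers summed to 1201 to 1212 CPM untreated, 782 to 822 CPM with WT-MyoD and 1520 to 1536 CPM with VP64-MyoD, but as single genes 2 rose and 5 fell with WT-MyoD, 4 rose and 5 fell with VP64-MyoD, and 5 were higher and 5 lower in VP64-MyoD than in WT-MyoD libraries. Sums of neuron and glia markers were 40.3 to 40.4, 82.5 to 95.3 and 130 to 132.7 CPM in the same order of groups. Endothelial markers summed to 26.2 to 27.6, 38.7 to 43.2 and 35.3 to 38.7 CPM, melanocyte markers to 6.36 to 6.62, 13.9 to 17.2 and 6.89 to 7.82 CPM, and adipocyte markers to at most 5.51 CPM. Of the 6 melanocyte markers, 1 was at 1 CPM or more in each group and carried the sum, and TYR, the enzyme that defines the type, was at 0 in all libraries.

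Transcription regulators included ID2, an inhibitor of basic helix-loop-helix factors such as MyoD, at 57.6 and 52.6 CPM untreated, 108 and 92.2 CPM with WT-MyoD, and 33.6 and 37.0 CPM with VP64-MyoD. Its relatives shared parts of that order. ID1 rose with WT-MyoD (edgeR log2 fold change 1.98, SE 0.12, adjusted p = 6.6e-10) and fell with VP64-MyoD (-0.55, SE 0.13, adjusted p = 0.0015), as did ID3 (1.21, SE 0.08, adjusted p = 4.5e-09, and -0.31, SE 0.09, adjusted p = 0.0051), both too little with VP64-MyoD for the rule. ID4 fell in both comparisons, with log2 fold changes of -0.67 and -1.12. ATOH8, a basic helix-loop-helix factor itself, was at 8.85 and 8.56 CPM untreated, 70.0 and 69.2 CPM with WT-MyoD, and 3.91 and 4.37 CPM with VP64-MyoD. OSR2, a zinc finger factor of limb and palate development, was at 6.28 and 5.65 CPM untreated, 16.7 and 14.2 CPM with WT-MyoD, and 0.978 and 0.526 CPM with VP64-MyoD. OSR1, its paralog, fell with VP64-MyoD as well (edgeR log2 fold change -2.01, SE 0.12, adjusted p = 1.1e-09) and rose less with WT-MyoD (0.33, SE 0.11, adjusted p = 0.016). TOX, an HMG-box factor of lymphocyte development, was at 10.5 CPM in both untreated libraries, 18.4 and 16.0 CPM with WT-MyoD, and 1.11 and 1.46 CPM with VP64-MyoD.

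None of the 101 was in the list of sarcomere and late differentiation genes, a count that cannot be told from the background, since 30 genes of that list were at 5 CPM or more with WT-MyoD and 0.948% of all such genes were members. Of the tested genes of that list, 40 of 45 rose with WT-MyoD, 42 rose with VP64-MyoD, and 43 were higher in VP64-MyoD than in WT-MyoD libraries. The list of cell division genes also held no member, which with 42 genes at 5 CPM or more cannot be told from the background either. All 45 tested genes of the cell division list rose in both MyoD groups. In the myoblast and muscle stem cell list ID2 was the single member, and of the other 32, 20 rose and 6 fell with WT-MyoD and 21 rose and 10 fell with VP64-MyoD. Among small heat shock proteins, which are abundant in muscle, HSPB6 was at 123 and 134 CPM untreated, 198 and 203 CPM with WT-MyoD and 62.3 and 61.8 CPM with VP64-MyoD, and HSPB7 at 78.5 and 75.2, 193 and 184, and 35.5 and 32.8 CPM. Relatives rose with VP64-MyoD in edgeR's test: HSPB8 was at 6.36 and 7.56 CPM untreated, 19.3 and 17.1 CPM with WT-MyoD and 72.1 and 64.7 CPM with VP64-MyoD, and CRYAB at 31.4 and 29.5, 57.8 and 48.6, and 79.9 and 76.7 CPM.

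Of 18 pathway lists, 12 held at least 1 of the 101 genes, 21 genes in all, and 80 genes were in none. The lists covered 492 of the 10650 genes at 5 CPM or more with WT-MyoD (4.62%) and 20.8% of the 101, but they were drawn up with earlier results of these data known, so nothing is read from that difference. In lists with 1 member, the cartilage list (ACAN) had 7 of 16 other genes higher and 7 lower with WT-MyoD, and 7 higher and 6 lower with VP64-MyoD. Among the 33 others of the integrin and adhesion list (ITGB8), 17 rose and 8 fell with WT-MyoD and 19 rose and 12 fell with VP64-MyoD, and among the 38 of the protease list (ADAMTS5) 20 rose and 14 fell and 19 rose and 15 fell. Besides muscle and division genes, 4 lists held none: MHC class I, NF-kB and early response, lipid, and p53 and cell cycle inhibitor genes. They had 19, 28, 21 and 27 genes at 5 CPM or more with WT-MyoD. With 0.948% of all such genes being members, these counts cannot be told from the background. Of 19 tested MHC class I genes, 13 rose and 0 fell with WT-MyoD, with 9 and 6 under VP64-MyoD. Of 33 NF-kB and early response genes, 15 rose and 11 fell, with 11 and 13. Of 28 lipid genes, 13 rose and 8 fell, with 17 and 10. Of 27 p53 and cell cycle inhibitor genes, 12 rose and 7 fell, with 5 and 13.

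Enzymes in the set covered peptide, lipid, steroid and retinoid substrates. PAM, which amidates the ends of secreted peptides, was at 504 and 519 CPM untreated, 1208 and 1113 CPM with WT-MyoD, and 302 and 315 CPM with VP64-MyoD. ACE, the angiotensin-converting enzyme, was at 17.7 CPM in both untreated libraries, 44.9 and 44.0 CPM with WT-MyoD, and 5.96 and 5.43 CPM with VP64-MyoD. PLPP3, a phosphatase of lysophosphatidic acid and related lipids, was at 249 CPM in both untreated libraries, 451 and 428 CPM with WT-MyoD, and 65.2 and 72.9 CPM with VP64-MyoD. Retinaldehyde dehydrogenases, which make retinoic acid, gave ALDH1A1, at 3.20 and 3.24 CPM untreated, 16.5 and 12.8 CPM with WT-MyoD and 1.78 and 1.94 CPM with VP64-MyoD, and ALDH1A3, at 30.4 and 26.5, 42.6 in both, and 9.25 and 8.59 CPM. The third enzyme of that family, ALDH1A2, was at or near 0 in all libraries. AKR1C1 and AKR1C2, nearly identical steroid-reducing enzymes that lie side by side on chromosome 10, are uncertain as separate genes, with group means of 11.7, 20.5 and 6.60 CPM and 15.5, 25.1 and 9.20 CPM in untreated, WT-MyoD and VP64-MyoD cells. AKR1C3 differed from them, at 16.1 and 14.2 CPM untreated, 36.5 and 28.7 CPM with WT-MyoD, and 28.2 and 28.8 CPM with VP64-MyoD.

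Other large changes were in genes of mixed role. DDIT4L, an inhibitor of mTOR signalling, had the largest WT-MyoD ratio, from 3.01 and 3.24 CPM to 43.1 and 36.3 CPM, with 1.78 and 2.07 CPM under VP64-MyoD. IRAG1, a target of cGMP-dependent kinase at the calcium store, had the largest loss, from 21.8 and 25.4 CPM to 2.00 and 1.74 CPM with VP64-MyoD, with 37.4 and 40.7 CPM under WT-MyoD. C11orf87 was at 19.9 and 19.6 CPM untreated, 113 and 108 CPM with WT-MyoD, and 6.36 and 6.07 CPM with VP64-MyoD. SEC14L5, which lies next to PPL on chromosome 16 and belongs to the SEC14 lipid-transfer family, was at 2.42 and 2.49 CPM untreated, 8.44 and 8.88 CPM with WT-MyoD, and 0.400 and 0.364 CPM with VP64-MyoD. USP53, a protein of tight junctions, was at 103 and 102 CPM untreated, 224 and 225 CPM with WT-MyoD, and 37.0 CPM in both VP64-MyoD libraries. AHNAK2, a giant scaffold protein, was at 669 and 604 CPM untreated, 1094 and 1546 CPM with WT-MyoD, and 355 and 347 CPM with VP64-MyoD, and its WT-MyoD libraries differed by 34.2% of their mean, the widest gap of the set in that group. REV3L, the catalytic subunit of DNA polymerase zeta, was at 216 and 226 CPM untreated, 388 and 425 CPM with WT-MyoD, and 130 and 143 CPM with VP64-MyoD. Its exons overlap the antisense gene TRAF3IP2-AS1, which had group means of 5.09, 6.56 and 4.01 CPM. By gene order, 4 pairs of members were neighbours with no gene at 1 CPM or more between them: PPL and SEC14L5, SEMA3A and SEMA3D, AKR1C1 and AKR1C2, and CLDN11 and SLC7A14 on chromosome 3.

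The share of a gene's counts that falls on each of its transcripts was not used to choose the set, and was tested. Transcript composition was compared with edgeR's test for differential transcript use over 6039 genes with at least 2 transcripts past the filter, of which 42 were members. The other 59 members had 1 transcript row. None of the 42 was called at an adjusted p of 0.05 for WT-MyoD over untreated, for VP64-MyoD over untreated or for VP64-MyoD over WT-MyoD, where 0.265%, 0.828% and 0.596% of all tested genes were, and 1, 6 and 5 of them had an unadjusted p under 0.05, where 4.6%, 7.67% and 6.03% of all tested genes had. The limma version of the test also called 0, with 1, 3 and 4 at an unadjusted p under 0.05. The share of all genes in the limma version is not given here, so nothing is read from its counts. The leading transcript of APLP2, 1 of 7, held 16.3% and 16.3% of its counts in untreated, 16.7% and 16.6% in WT-MyoD and 16.7% and 16.5% in VP64-MyoD libraries, and that of DCN, 1 of 6, held 32.8% and 33.9%, 33.9% and 33.8%, and 35.3% and 34.4%. Over the 42 genes the leading share moved by a median of 3.09 percentage points between group means and by 11.4 points at most, in MELTF. How reads that fit several transcripts were assigned is not given in the sources used here, and shares were near even among many transcripts of a gene, which limits what this test can show.

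The authors' deposited table of changed transcripts, made with DESeq on these libraries, listed 104 transcripts of 58 members among its 3135 transcripts. In the authors' deposited table all 104 had a log2 fold change above 0 with WT-MyoD and below 0 with VP64-MyoD, as 142 of all its transcripts did. For CLEC3B the authors' deposited table gives log2 fold changes of 2.88 and -2.75. It rests on the same counts as the rule and is no separate support.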

How the data were processed

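Messenger RNA of 6 cultures was sequenced from unstranded transposase libraries, per the labels' protocols. The authors deposited raw counts per RefSeq transcript, and the submitters' processing notes name CASAVA, Bowtie 0.12.9, DESeq 1.10.1 and hg19. The rule for assigning shared reads is not given in the sources used here. The authors' deposited table adds fold changes, log2 fold changes and p-values, per the file headers. Of 40710 rows, 39320 were named from RefSeq and 521 from GENCODE, 868 had no symbol (0.601 to 0.744% of a library) and 1 was the transgene. Rows were summed into 23527 genes.

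The rule for the set used CPM by column total. Tests used edgeR 4.0.16 (TMM, filterByExpr, glmQLFit and glmQLFTest, two-sided, all 6 libraries in 1 fit, Benjamini-Hochberg at 0.05) and edgeR's diffSpliceDGE for transcript composition, in R 4.3.3, and were first tested on simulated data. With 2 libraries a group the fit had 3 residual degrees of freedom, and replicates differed by more than sampling noise (chi-square per degree of freedom 3.75 untreated, 15.6 WT-MyoD and 6.82 VP64-MyoD). The column-total scale lies 0.17 (WT-MyoD) and 0.18 (VP64-MyoD) log2 above TMM over untreated at the median of all genes, so log2 changes smaller than that turn with the scale. Alternatives were limma-voom 3.58.1, DESeq2 1.42.0, other filters, scalings and thresholds, a replicate block and leaving out each library.

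Genes were named by rule: the 15 members farthest inside both conditions, the 10 with the highest WT-MyoD mean, up to 6 members of each of 18 pathway lists, 4 genes either side of each threshold, the 2 most abundant genes of the composition test, and up to 3 non-members of each list with 2 or more members. Those non-members were the ones with the smallest adjusted p in VP64-MyoD over WT-MyoD. Paralogs, role groups and the other members were chosen after their values were seen. The members and the lists were chosen with earlier results of these data known. Values of 1 gene of the set are not reported here.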

Additional observations from a re-analysis of the deposited data

How the results depend on the processing

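The number of genes in the set followed its thresholds: 228 at a ratio of 1.2 and 21 at a ratio of 2, in place of 101 at 1.4. It was 126 at a minimum of 1 CPM and 70 at 20 CPM, and between 105 and 120 with any 1 library left out. All 101 were then kept, but leaving out a library can only loosen both ratio conditions. Only the minimum of 5 CPM could then remove a gene, so nothing is read from all 101 being kept. Scaling by TMM gave 92 genes and DESeq2 size factors 93, and 73 of the 101 were in each. Of the 43 genes named by rule, 9 were no longer members with TMM scaling: APLP2, ATP2B4, ADAMTSL1, ADAMTS5, CSF1, DKK1, PDGFRL, SEMA3D and SMAD9. The composition test called 0 members in every alternative but 2: ADAMTSL4 was called for VP64-MyoD over untreated without WT-MyoD replicate 1 and without WT-MyoD replicate 2, so that the count without 1 library ran from 0 to 1. Labels number the replicates 1 and 2 in each group, but same-numbered libraries did not deviate together (correlations of replicate differences 0.079, -0.005 and -0.043). With the replicate number as a block, 7388 genes were called for WT-MyoD over untreated, 9680 for VP64-MyoD over untreated and 8695 between the MyoD groups, and 0 members in the composition test. Of the 504 counts of list genes and directions under alternatives, 7 moved by over 1.5 times, 4 where genes under 1 CPM were left out and 3 where 1 library was. Fold changes of the genes named by rule were less stable, with 128 marked as moved and 560 as the same. Counts of each comparison were marked as moved in 4 cases and the same in 126. The size of a move in those further checks is not given here. Depth limits the genes under 10 CPM, 14 of the set with WT-MyoD, most.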
